A study of Mus musculus with 55 samples.

Results

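The extracellular matrix genes described here are the collagens, laminins, nidogens, matrix glycoproteins and proteoglycans, lysyl oxidases, matrix proteases with their inhibitors, and integrins. They were chosen by gene symbol alone from the genes listed in the RNA-seq tables. In all, 91 of the 4113 listed genes qualified, and 205 protein-coding genes of the annotation have such a symbol. Of the 91 genes, 90 were listed for Setd8-LKO + TCPOBOP against untreated WT livers and 5 for WT + TCPOBOP against untreated WT livers, with 4 in both. Each table lists only genes that the authors selected for a change in these same libraries, so being listed already used the contrast. The counts given here describe the listed genes and are no independent evidence of a direction.

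All livers came from male C57Bl6 mice 45 to 50 days old. RNA-seq covered 5 untreated WT livers (WT1 to WT5), 5 livers of WT mice 24 h after 1 intraperitoneal dose of 3 mg/kg TCPOBOP (WTT1 to WTT5), and 4 livers of Setd8-LKO mice after the same dose and time (LKO1 to LKO4). TCPOBOP is an agonist of the nuclear receptor CAR and drives hepatocytes into the cell cycle. Setd8, now named Kmt5a, monomethylates histone H4 at lysine 20. In Setd8-LKO mice a floxed exon of the gene is removed by Cre under the albumin promoter, which is active in hepatocytes. The paper describes the loss as specific to hepatocytes, and the state of the gene in other liver cells was not measured here. No untreated Setd8-LKO liver was analysed here, and genotype and treatment change together in the Setd8-LKO comparison. The counts of Kmt5a were higher, not lower, in the libraries labelled Setd8-LKO. Normalized counts were 613, 567, 761, 563 and 715 in WT1 to WT5 and 1341, 1465, 1338 and 1313 in LKO1 to LKO4. Counts over the whole gene do not show whether the floxed exon is missing, and the directions below rest on the labels.

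The extracellular matrix consists of fibrils of collagen types I, III and V, sheets of basement membrane made of laminins, collagen IV and nidogen, and the glycoproteins and proteoglycans that link them. Lysyl oxidases cross-link collagen and elastin, metalloproteinases cut matrix proteins, TIMPs inhibit the metalloproteinases, and integrins tie cells to the matrix. In the liver, stellate cells and portal fibroblasts are the main makers of fibrillar collagen, while hepatocytes, endothelial cells and bile duct cells contribute to basement membrane proteins.

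Against untreated WT, 86 matrix genes passed the filter on low counts, of which 69 were called higher and 7 lower in the livers labelled Setd8-LKO. The call required a quasi-likelihood adjusted p below 0.05 in edgeR and a change of 1 or more, up or down, in log2 units. Over all 3726 listed genes tested, 50.5% were called higher and 34.6% lower, 85.1% in all. The median log2 fold change was 1.85 for the matrix genes and 1.16 for all genes tested. No library of one group overlapped the other group for 70 matrix genes that were higher and 7 that were lower, and over all genes tested these shares were 51.8% and 35.6%. A log2 fold change of at least 2 was reached by 35 of the matrix genes called higher, and by 22.6% of all genes tested. The 10 genes tested but not called were Adam22, Col4a6, Col6a6, Col8a1, Fbln7, Itga2, Itga8, Itgb8, Loxl4 and Thbs2. The 4 that did not pass the filter were Col28a1, Col9a3, Mmp7 and Vcan.

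The scale matters for these counts. The authors' normalization was used for the values given here. With size factors computed from the listed genes alone, most of which had been selected as changed, the median over all genes fell to 0.30 and that of the matrix genes to 1.02. On that scale 34 matrix genes were called higher and 8 lower, against 766 and 1448 of all genes. All 74 of the called matrix genes that had a value there kept their direction. By role, the number called higher then fell from 15 to 5 for the glycoproteins and proteoglycans, from 11 to 5 for the basement membrane genes, from 10 to 6 for the Adamts genes, from 7 to 3 for the other collagens and from 6 to 3 for the fibrillar collagens, while the lysyl oxidases stayed at 3.

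**Figure D1:**
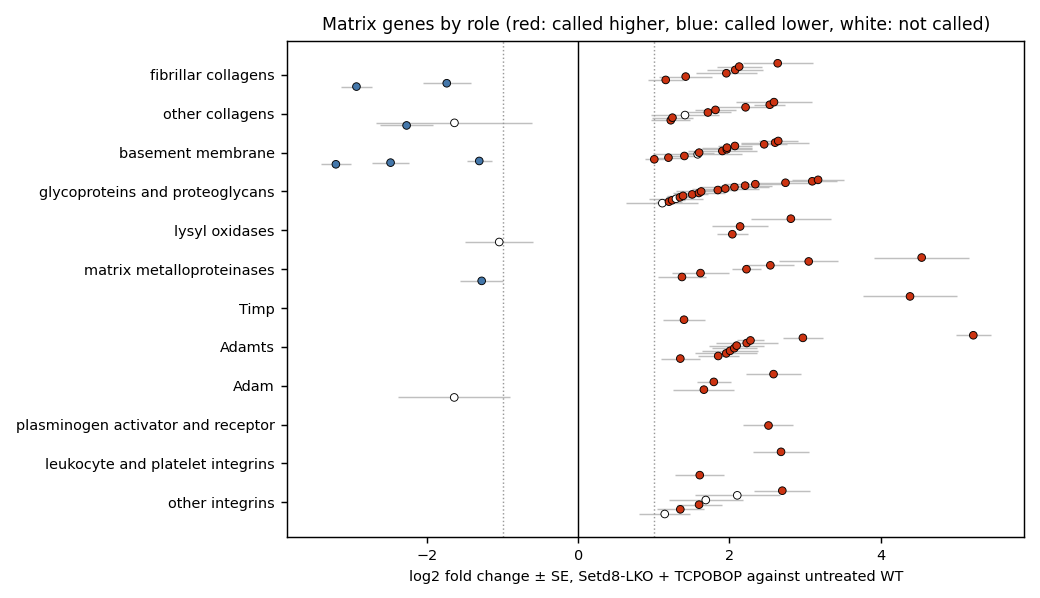
Log2 fold change with its standard error for the 86 matrix genes tested, Setd8-LKO + TCPOBOP (n = 4) against untreated WT (n = 5), grouped by role. Red dots are genes called higher, blue dots genes called lower and white dots genes not called, and dotted lines mark -1 and 1. The 7 genes called lower sit among the collagens, the laminins and the metalloproteinases.

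Proteases and their inhibitors held the largest rises. All 10 Adamts and Adamts-like genes were called higher, beside 50.5% of all genes tested, and their median was 2.08 on the log2 scale. Adamts14, a procollagen N-propeptidase that trims fibrillar collagen (ENSMUSG00000059901, chr10:61197112-61273438, minus strand, GRCm38), had normalized counts of 45, 24, 32, 32 and 34 in WT1 to WT5 and 1002, 1080, 1268 and 1666 in LKO1 to LKO4. Every LKO library was far above every WT library, and LKO4, not LKO1 or LKO2, was the highest. This gave a log2 fold change of 5.23 (SE 0.23, edgeR adjusted p = 1.233e-06). Adamts15, which cuts hyalectan proteoglycans, went from 15.2 ± 3.03 (SD, n = 5) to 118.5 ± 30.6 (SD, n = 4), and Adamts1, another such aggrecanase, from 156 ± 17.3 to 758 ± 162. Adamts1 was highest in LKO3 at 990 and lowest in LKO4 at 618, an order seen in few other matrix genes.

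Of the 8 metalloproteinases, 7 were tested, 6 were called higher and 1 was called lower, beside 50.5% and 34.6% of all genes tested. Mmp12, the macrophage elastase (ENSMUSG00000049723, chr9:7344381-7369499, plus strand), had normalized counts of 2, 3, 2, 26 and 3 in WT1 to WT5 and 196, 164, 126 and 204 in LKO1 to LKO4. WT4 stood apart from the other untreated livers, yet remained below every LKO library. Mmp12 rose by 4.54 on the log2 scale (SE 0.63, edgeR adjusted p = 0.0007855), and by 6.05 without WT4. Mmp13, the main collagenase of rodents (ENSMUSG00000050578, chr9:7272514-7283331, plus strand), lies in the same gene cluster. Its counts were low, 1, 5, 2, 6 and 2 in WT1 to WT5 against 27, 34, 23 and 28 in LKO1 to LKO4, and the groups did not overlap. Its log2 fold change was 3.05 (SE 0.39, edgeR adjusted p = 0.0004389).

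Mmp2, the gelatinase typical of stellate cells and fibroblasts, had 60, 45, 46, 36 and 53 in the WT livers and 446, 319, 146 and 214 in LKO1 to LKO4. Its values in LKO1 and LKO2 were above those in LKO3 and LKO4. Mmp2 rose by 2.54 on the log2 scale (SE 0.32, edgeR adjusted p = 0.0003783). Mmp24, Mmp23 and Mmp28 were also called higher, at 2.23, 1.62 and 1.37. Mmp7, an epithelial matrilysin, did not pass the filter on low counts, with 1, 1, 3, 2 and 0 in the WT livers and 164, 67, 9 and 23 in LKO1 to LKO4. LKO3 and LKO4 were far below LKO1, so 1 library carries most of the signal. Mmp15, a membrane-anchored metalloproteinase that is abundant in liver, was called lower at -1.28. Its normalized counts were 1348, 1127, 677, 892 and 685 in WT1 to WT5 and 474, 488, 221 and 379 in the LKO livers. The call was lost without WT2 (edgeR adjusted p = 0.0512) or without LKO4 (edgeR adjusted p = 0.06528).

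The inhibitor Timp1 (ENSMUSG00000001131, chrX:20870166-20874735, plus strand) had normalized counts of 0, 3, 3, 5 and 0 in WT1 to WT5 and 69, 61, 24 and 37 in LKO1 to LKO4. All LKO libraries were above all WT libraries, though the low counts leave a wide error. Timp1 rose by 4.39 on the log2 scale (SE 0.62, edgeR adjusted p = 0.0009099). Timp2, which is expressed at a steadier level in most tissues, went from 235 ± 53.2 (SD, n = 5) to 622 ± 229 (SD, n = 4), a log2 fold change of 1.40. Plaur, the urokinase receptor that focuses plasminogen activation at the cell surface, had 6, 9, 17, 13 and 9 in the WT livers and 77, 80, 47 and 50 in LKO1 to LKO4. Its log2 fold change was 2.51 (SE 0.33, edgeR adjusted p = 0.0004977). Adam8, a sheddase of leukocytes, was called higher at 2.58, Adam11, a brain-type Adam without protease activity, at 1.79, and Adam32 at 1.66.

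The 250 bases before the RefSeq starts of Mmp12, Mmp13, Adamts14 and Timp1 are shown because these genes rose most among the proteases and inhibitors and because their start regions differ in letters and in chromatin. Capitals mark matches on either strand to an AP-1 site (TGANTCA), a TEAD site (GGAATG) or a TATA box (TATAAA), and the build is GRCm38.p6. RefSeq promoters matched 65 of the 91 genes.
Mmp12, chr9:7344147-7344396, plus strand: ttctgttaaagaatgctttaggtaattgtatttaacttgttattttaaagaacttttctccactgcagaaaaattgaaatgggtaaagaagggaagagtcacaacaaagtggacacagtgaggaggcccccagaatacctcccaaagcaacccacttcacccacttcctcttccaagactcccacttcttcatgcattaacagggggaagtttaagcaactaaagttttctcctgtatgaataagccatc
Mmp13, chr9:7272264-7272513, plus strand: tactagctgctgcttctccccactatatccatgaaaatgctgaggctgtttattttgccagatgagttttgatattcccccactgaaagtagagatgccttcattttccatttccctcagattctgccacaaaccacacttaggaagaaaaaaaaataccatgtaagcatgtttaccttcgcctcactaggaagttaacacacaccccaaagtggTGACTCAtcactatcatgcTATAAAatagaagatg
Adamts14, chr10:61273420-61273669, minus strand: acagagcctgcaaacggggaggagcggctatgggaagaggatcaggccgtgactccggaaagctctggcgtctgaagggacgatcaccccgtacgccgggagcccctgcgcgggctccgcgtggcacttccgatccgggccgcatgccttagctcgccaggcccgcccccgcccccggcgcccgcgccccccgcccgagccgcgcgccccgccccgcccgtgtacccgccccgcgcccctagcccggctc
Timp1, chrX:20869916-20870165, plus strand: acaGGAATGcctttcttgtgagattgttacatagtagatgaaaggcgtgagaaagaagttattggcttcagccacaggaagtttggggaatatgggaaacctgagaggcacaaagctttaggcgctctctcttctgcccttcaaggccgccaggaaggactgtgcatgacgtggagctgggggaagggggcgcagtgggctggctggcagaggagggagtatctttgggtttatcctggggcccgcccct

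The Mmp13 window held an AP-1 match from 35 to 29 bases before the start and a TATA box from 16 to 11 bases before it. The Timp1 window held a TEAD match from 247 to 242 bases before the start, and the other windows shown held no match to the 3 motifs. Among the 45 promoters of matrix genes called higher, 4 held the AP-1 motif (8.89%, in Col6a1, Itgax, Mmp13 and Plaur), against 6.75% of all 32851 promoters of the same length. The TEAD motif was in 4 of the 45 (8.89%) against 12.6% of all promoters, and the TATA box in 6 (13.3%) against 12.4%. A match describes letters and is not a measured binding site.

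Fibrillar collagens were called higher for 6 of 8 genes and lower for 2, beside 50.5% and 34.6% of all genes tested. Col1a1, the alpha 1 chain of type I collagen (ENSMUSG00000001506, chr11:94936224-94953042, plus strand), had normalized counts of 176, 58, 208, 271 and 274 in WT1 to WT5 and 1821, 1694, 530 and 875 in LKO1 to LKO4. The groups did not overlap, but LKO1 and LKO2 lay far above LKO3 and LKO4. The log2 fold change was 2.64 (SE 0.46, edgeR adjusted p = 0.003863), and 1.83 without LKO1 and LKO2 (edgeR adjusted p = 0.0976). Col3a1, the type III chain (ENSMUSG00000026043, chr1:45311538-45349706, plus strand), had 678, 372, 831, 789 and 928 in the WT livers and 4320, 4354, 1287 and 2189 in LKO1 to LKO4. Its log2 fold change was 2.08 (SE 0.37, edgeR adjusted p = 0.004563), and 1.27 without LKO1 and LKO2 (edgeR adjusted p = 0.1036). Col1a2, Col5a2, Col11a2 and Col5a1 rose by 2.13, 1.96, 1.42 and 1.16 on the log2 scale.

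Col5a3 and Col27a1 went the other way. Col5a3, a minor chain of type V collagen (ENSMUSG00000004098, chr9:20770050-20815067, minus strand), had normalized counts of 923, 997, 1039, 683 and 1363 in WT1 to WT5 and 143, 139, 125 and 117 in LKO1 to LKO4. The 4 LKO libraries were close to one another, and all were below every WT library. This was a log2 fold change of -2.93 (SE 0.21, edgeR adjusted p = 1.355e-05), while its partner chains Col5a1 and Col5a2 were called higher. Col27a1, a fibrillar collagen of cartilage, was called lower at -1.74, from 594 ± 255 (SD, n = 5) to 178 ± 39 (SD, n = 4), and its call was lost without LKO3 and LKO4 together (edgeR adjusted p = 0.1125).

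Among the 12 other collagens, 10 were tested, 7 were called higher and 1 lower, beside 50.5% and 34.6% of all genes tested. The type VI chains Col6a1, Col6a2, Col6a3 and Col6a5, which form beaded filaments next to basement membranes, were called higher at 1.82, 1.72, 2.21 and 2.59. Col6a5 had the lowest counts, 8, 1, 3, 8 and 13 against 56, 61, 23 and 30, and its call was lost without LKO1 and LKO2 (edgeR adjusted p = 0.1814). Col20a1 rose by 2.53, and its highest library was LKO3 at 352. Col25a1, a transmembrane collagen of neurons, fell from 23, 19, 35, 40 and 32 in WT1 to WT5 to 4, 9, 5 and 8 in LKO1 to LKO4. Col25a1 was at -2.27 on the log2 scale (SE 0.35, edgeR adjusted p = 0.001567).

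Col6a6 was not called, and its counts followed the run given in the column headers, which do not say what a run is. The column headers name 2 runs, and WT3, WT4, WT5 and LKO4 were in run A and WT1, WT2, LKO1, LKO2 and LKO3 in run B. Normalized counts of Col6a6 were 1797, 1593, 1074 and 919 in the run A libraries WT3, WT4, WT5 and LKO4, and 80, 135, 146, 70 and 71 in the run B libraries WT1, WT2, LKO1, LKO2 and LKO3. In run A the LKO library lay below the WT libraries, in run B the groups overlapped, and the values in run A were at least 919 while those in run B were at most 146. Adam22 split by run among the WT libraries only, at 130, 234 and 123 in WT3, WT4 and WT5 and at 28 and 9 in WT1 and WT2. Its LKO libraries did not follow the run, with 17 in LKO4 and 54, 25 and 38 in LKO1 to LKO3. For Adam22 the log2 fold change was -3.24 within run A and 1.07 within run B. Loxl4 also differed in sign, at -1.86 within run A and 0.09 within run B. Its counts were 21 in LKO4 and 37, 23 and 26 in LKO1 to LKO3. Of all the matrix genes tested, 76 of the 86 were above 0 within run A, which has 1 LKO library, and 78 within run B, against 58.9% and 59.6% of all genes tested. The 76 genes called had the same direction in both runs.

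Basement membrane genes were split, with 11 of the 15 tested called higher and 3 called lower, beside 50.5% and 34.6% of all genes tested. Col4a1 and Col4a2, which form the common collagen IV network, are transcribed head to head from RefSeq starts 21 bases apart. Col4a1 had normalized counts of 842, 670, 1023, 1071 and 949 in WT1 to WT5 and 3436, 3092, 2021 and 2505 in LKO1 to LKO4, a log2 fold change of 1.6 (SE 0.20, edgeR adjusted p = 0.0003597). Col4a2 rose in step by 1.40 (SE 0.17, edgeR adjusted p = 0.000373). With size factors from the listed genes Col4a1 and Col4a2 were at 0.76 and 0.56 and no longer called. Col4a5 and Col4a4, chains of the more restricted collagen IV networks, rose by 2.65 and 1.91. Nid1, the linker between laminin and collagen IV, went from 371 ± 54.4 (SD, n = 5) to 1560 ± 498 (SD, n = 4), a log2 fold change of 2.07.

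The laminin chains were divided as well. Lama2, Lama5, Lamb1, Lamc1 and Lamc3 were called higher, at 1.97, 2.46, 1.19, 1.01 and 1.97. Lama3 and Lamb3, laminin chains of epithelial basement membranes, were called lower. Lamb3 (ENSMUSG00000026639, chr1:193207699-193343878, plus strand) had normalized counts of 8520, 10519, 6398, 6569 and 7033 in WT1 to WT5 and 1163, 985, 1760 and 1685 in LKO1 to LKO4. Its log2 fold change was -2.48 (SE 0.25, edgeR adjusted p = 8.706e-05). Lama3 fell from 189, 175, 225, 222 and 226 in the WT livers to 18, 27, 23 and 22 in the LKO livers, a log2 fold change of -3.20 (SE 0.20, edgeR adjusted p = 6.656e-06).

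Col18a1, whose C-terminal fragment is endostatin and which is strongly expressed in hepatocytes, was also lower (ENSMUSG00000001435, chr10:77052178-77166548, minus strand). Normalized counts were 21541, 19132, 17050, 18062 and 18504 in WT1 to WT5 and 6876, 6621, 8540 and 8438 in LKO1 to LKO4, a log2 fold change of -1.31 (SE 0.17, edgeR adjusted p = 0.0004356). Per kilobase of exon it was the most abundant matrix gene listed for the Setd8-LKO comparison in both groups, at 2686 normalized counts per kb in the WT livers and 1085 in the LKO livers. In the WT livers it was followed per kb by Lamb3 at 1181 and Sparc at 300.3. In the LKO livers it was followed by Sparc at 785, Dcn at 657 and Bgn at 489, and Lamb3 was at 212.

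**Figure D2:**
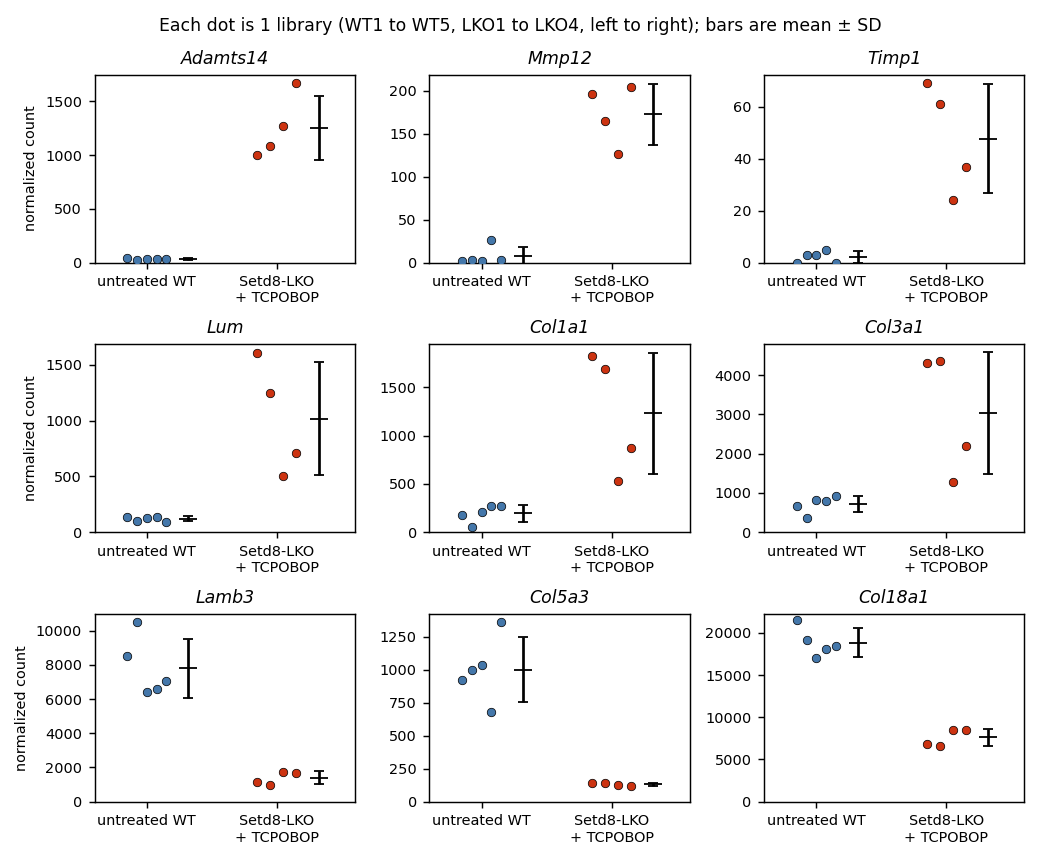
Normalized counts of 9 matrix genes in each untreated WT library (WT1 to WT5, blue) and each Setd8-LKO + TCPOBOP library (LKO1 to LKO4, red), with mean ± SD beside the dots. Adamts14 lies above 1000 in every LKO library, Col1a1 and Col3a1 are higher in LKO1 and LKO2 than in LKO3 and LKO4, and Lamb3, Col5a3 and Col18a1 are lower in every LKO library than in any WT library.

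Glycoproteins and proteoglycans were called higher for 15 of the 17 genes tested, beside 50.5% of all genes tested. The number was 5 with size factors from the listed genes. The log2 fold change was above 0 in all 17, so that 0 were lower also at an unadjusted p under 0.05. For edgeR, DESeq2 and limma-voom, which read the same counts, the count of 0 called lower follows from this direction. It is no separate support. Over all genes tested, 34.6% were called lower. Lum, or lumican, a small leucine-rich proteoglycan that spaces collagen fibrils (ENSMUSG00000036446, chr10:97565128-97572703, plus strand), had normalized counts of 138, 99, 129, 136 and 92 in WT1 to WT5 and 1610, 1250, 500 and 705 in LKO1 to LKO4. Lum rose by 3.10 on the log2 scale (SE 0.33, edgeR adjusted p = 0.0001303). Its neighbour on chromosome 10, decorin (Dcn), rose less, from 1743, 1517, 1651, 1685 and 1749 to 4967, 4090, 2996 and 3296, a log2 fold change of 1.20 (SE 0.17, edgeR adjusted p = 0.0008255). With size factors from the listed genes Dcn was at 0.35 and not called.

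Sparcl1, a matricellular protein related to Sparc, had 81, 69, 87, 58 and 72 in the WT livers and 1077, 823, 308 and 442 in LKO1 to LKO4, a log2 fold change of 3.17 (SE 0.34, edgeR adjusted p = 0.0001524). Sparc itself rose by 1.39 (SE 0.21, edgeR adjusted p = 0.001325), and by 0.53 with size factors from the listed genes, where it was not called. Thbs1, or thrombospondin 1, which can release TGF-beta from its latent complex, had 16, 8, 23, 35 and 23 in WT1 to WT5 and 204, 189, 67 and 105 in LKO1 to LKO4. Its log2 fold change was 2.74 (SE 0.43, edgeR adjusted p = 0.001878).

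Elastic fibre genes were called higher as well: Eln at 2.34, Fbn1 at 2.21, Fbln1 at 2.07, Fbln5 at 1.85, Fbln2 at 1.63, Efemp2 at 1.51 and Emilin1 at 1.24. With size factors from the listed genes only Eln and Fbn1 of these were still called, at 1.44 and 1.30. Tnc, or tenascin C, was called at 1.95 although LKO3, at 19, lay below WT4, at 25. Vcan, or versican, did not pass the filter. Its normalized counts were 2, 0, 7, 3 and 0 in WT1 to WT5 and 43, 52, 14 and 8 in LKO1 to LKO4, all 4 above every WT library.

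Of the 4 lysyl oxidases, 3 were called higher, beside 50.5% of all genes tested. Lox had 7, 3, 9, 7 and 10 in the WT livers and 84, 80, 17 and 28 in LKO1 to LKO4, a log2 fold change of 2.81 (SE 0.53, edgeR adjusted p = 0.006134). The value for Lox was 1.61 without LKO1 and LKO2 (edgeR adjusted p = 0.1206) and 3.45 without LKO3 and LKO4. Loxl1 and Loxl2 rose by 2.14 and 2.04. Loxl4 was at -1.04 and was not called, with WT libraries between 23 and 108.

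Integrins were called higher for 5 of the 8 genes tested, beside 50.5% of all genes tested. With size factors from the listed genes only Itgax and Itgb4 of these were still called, at 1.80 and 1.81. Itgb4, the partner of Itga6 in the laminin receptor of hemidesmosomes, had 16, 13, 16, 11 and 10 in WT1 to WT5 and 114, 121, 35 and 76 in LKO1 to LKO4. Its log2 fold change was 2.70 (SE 0.37, edgeR adjusted p = 0.0007147), and Itga6 rose by 1.35. Itgax, the CD11c chain of dendritic cells and some macrophages, had 18, 14, 31, 21 and 28 against 189, 215, 71 and 99. Itgax rose by 2.68 on the log2 scale (SE 0.37, edgeR adjusted p = 0.0007741). Itgae, the CD103 chain of intraepithelial lymphocytes and dendritic cells, rose by 1.61, and Itga3, a laminin receptor chain, by 1.6. Itga2, Itga8 and Itgb8 had positive values of 1.69, 1.15 and 2.1 and were not called.

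Most matrix genes divided the 4 LKO libraries in the same way. In 58 of the 69 genes called higher (84.1%), LKO1 and LKO2 were both above LKO3 and LKO4, and LKO3 was the lowest of the 4 in 55. Over all 1881 listed genes called higher, the first of these shares was 44.1%, and LKO3 was the lowest in 1005. The ratio of the highest to the lowest LKO library had a median of 2.36 in the matrix genes and 1.67 in all genes called higher. Genes that departed from this order included Adamts14, Adamts1, Adam11, Mmp12 and Col20a1. Without LKO1 and LKO2, 33 matrix genes were called higher and 7 lower, the median log2 fold change was 1.29, and that of all genes was 0.94. Without LKO3 and LKO4, 74 were called higher and 5 lower. All 76 genes called with the 4 LKO libraries kept their direction in both cases.

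**Figure D3:**
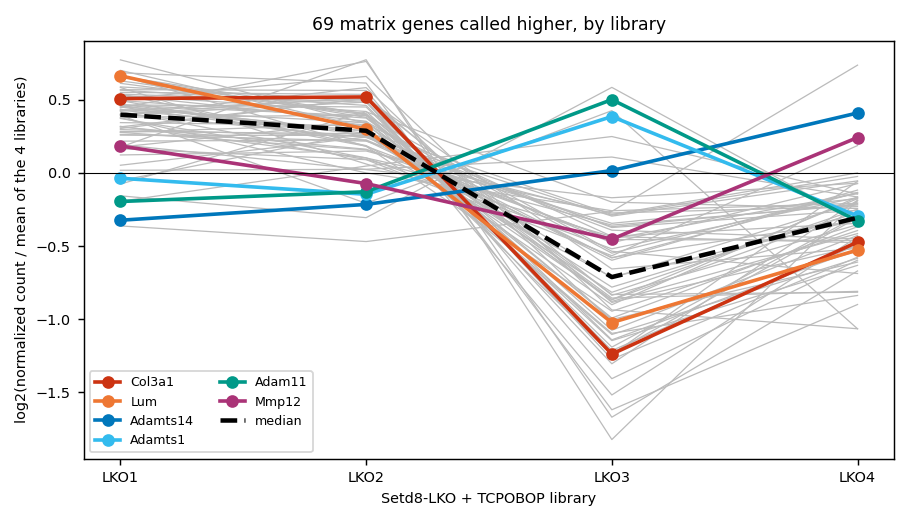
For each of the 69 matrix genes called higher, the normalized count in each Setd8-LKO + TCPOBOP library divided by the mean of the 4 libraries, on a log2 scale (grey lines join the values of 1 gene, and the libraries have no order). Col3a1 and Lum follow the dashed median, high in LKO1 and LKO2 and low in LKO3, whereas Adamts14, Adamts1, Adam11 and Mmp12 do not.

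Markers of other liver cells moved with the matrix genes. Of 12 stellate cell or fibroblast markers, the 4 listed (Cygb, Hand2, Pdgfra and Pdgfrb) were all called higher, and their summed normalized counts were 359 to 550 in the WT livers and 2400, 2123, 1127 and 1332 in LKO1 to LKO4. Of 10 cholangiocyte markers, 8 were listed, 7 were tested and 6 were called higher. Their summed counts were 450 to 716 in the WT livers and 7625, 6137, 1663 and 3976 in LKO1 to LKO4. LKO1 and LKO2 were thus highest for both marker lists, as for most matrix genes. Of 12 hepatocyte markers, 10 were listed, 8 were called lower and Cyp3a11, which CAR induces, was called higher. Their summed counts were 1361835 to 2209131 in the WT livers and 692782 to 949468 in the LKO livers, lowest in LKO1 and LKO2. Over all listed genes tested, 50.5% were called higher and 34.6% lower. With size factors from the listed genes, 2 stellate cell or fibroblast and 4 cholangiocyte markers were called higher and 9 hepatocyte markers lower. On that scale 766 of all genes were called higher and 1448 lower.

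Of 10 monocyte or neutrophil markers 4 were listed and 2, Ccr2 and Ly6c2, were called higher, with summed counts of 22 to 149 in the WT livers and 130 to 260 in the LKO livers. With size factors from the listed genes 0 of these 4 were called higher. Of 11 macrophage markers only Marco was listed, and it was not called. Marco was at 73 to 272 in the WT livers and 304 to 489 in the LKO livers. No marker of sinusoidal endothelial cells, of 10, or of platelets, of 6, was listed, and those are not analysed here. No listed marker was at 0 in every WT library. In whole liver, more cells of a type and more RNA per cell cannot be told apart, and the part of these markers in the matrix counts was not tested.

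Genes that act on the matrix without belonging to the symbols above were read from fixed lists. Only listed genes could be counted, and over all listed genes tested 50.5% were called higher and 34.6% lower. Of 24 collagen biosynthesis enzymes, 8 were listed, 6 were called higher and 1 lower. Plod2, a lysyl hydroxylase that shapes collagen cross-links, rose by 2.23, and Colgalt2, a collagen galactosyltransferase, by 2.23. Bmp1, the procollagen C-proteinase, fell from 2397 ± 231 (SD, n = 5) to 1104 ± 71.2 (SD, n = 4), a log2 fold change of -1.12, whereas the N-propeptidase Adamts14 rose. Of 24 TGF-beta signalling genes, 11 were listed, 10 were called higher and 1, Inhba, lower. The ligands Tgfb2 and Tgfb3 rose by 2.83 and 1.90, the receptor Tgfbr2 by 1.62, and the latency proteins Ltbp1, Ltbp2 and Ltbp3 by 1.37, 2.17 and 1.47.

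Of 13 plasminogen system genes, 7 were listed, 4 were called higher and 3 lower. Plat, the tissue plasminogen activator, went from 6 ± 3.74 (SD, n = 5) to 129 ± 93.3 (SD, n = 4), a log2 fold change of 4.33. Its cell surface partners Anxa2 and S100a10 rose by 3.47 and 1.80. Klkb1 and Cpb2, plasma proteins made by hepatocytes, were at -2.27 and -1.14, and Serpine2 was at -1.71. Of 24 further cell surface and matrix proteoglycans 5 were listed, Gpc1 was called higher and Gpc4 and Sdc2 lower, and of 23 integrin adhesion genes only Src and Fermt1 were listed, both called higher at 2.95 and 2.46. With size factors from the listed genes the number called higher was 2 for the collagen enzymes, 3 for TGF-beta signalling, 3 for the plasminogen system, 0 for the proteoglycans and 2 for the adhesion genes. Of all genes tested, 3586 had a value on that scale and 766 of these were called higher.

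Most matrix genes were not listed for TCPOBOP alone in WT livers, and neither were most genes of any kind. Of the 4113 genes listed in either comparison, 719 were listed there. Of the 91, 5 were listed for WT + TCPOBOP against untreated WT, 4 passed the filter, and all 4 were called higher, beside 51.4% of the 679 genes tested (67.6% called in either direction). None was called lower, none had a negative value at an unadjusted p under 0.05, and DESeq2 and limma-voom also gave 0, beside 16.2% of all genes tested. All 4 values were positive, so this count of 0 follows from the direction and is no separate support. The median log2 fold change was 1.90 for the matrix genes and 1.35 for all genes tested. With size factors from the listed genes these medians were 0.75 and 0.16, and edgeR called 0 of the 4. Only Adamtsl1 was called at a log2 fold change of 2 or more, beside 20.3% of all genes tested. Col15a1, a collagen of perivascular basement membranes, was listed only for this comparison. Its normalized counts were 212, 149, 154, 542 and 129 in WT1 to WT5 and 888, 984, 897, 828 and 844 in WTT1 to WTT5, with WT4 apart from the rest. Col15a1 rose by 1.90 on the log2 scale (SE 0.37, edgeR adjusted p = 0.04154), and 2.46 without WT4. The call was kept without WT4 and lost when any other library was left out (edgeR adjusted p = 0.08732 to 0.1309).

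The remaining genes were listed in both comparisons, which share the 5 untreated libraries, and these libraries carry the same normalization factors in both tables. Loxl2, which cross-links collagen IV, had 320, 219, 313, 414 and 292 in WT1 to WT5, 657, 751, 714, 916 and 858 in WTT1 to WTT5, and 1553, 1430, 1009 and 1134 in LKO1 to LKO4. The 3 groups did not overlap, and the LKO livers were highest. Loxl2 had a log2 fold change of 1.32 in WT + TCPOBOP (SE 0.19, edgeR adjusted p = 0.005636) and 2.04 in Setd8-LKO + TCPOBOP (SE 0.20, edgeR adjusted p = 8.92e-05). Timp1 had 9, 15, 23, 26 and 17 in WTT1 to WTT5, all above the WT values given above and overlapping the LKO values only between 24 and 26. It did not pass the filter in the WT + TCPOBOP table.

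Adam11 had 345, 220, 224, 375 and 268 in the WT livers, 1073, 747, 1386, 1030 and 1080 in WTT1 to WTT5, and 868, 909, 1407 and 792 in LKO1 to LKO4. Both treated groups were above the untreated one and overlapped each other. Adamtsl1 had 32, 15, 25, 16 and 22 in the WT livers, 119, 75, 118, 145 and 144 in WTT1 to WTT5, and 96, 93, 62 and 69 in LKO1 to LKO4. The log2 fold changes against untreated WT were 1.89 and 1.79 for Adam11 and 2.44 and 1.85 for Adamtsl1, in WT + TCPOBOP and in Setd8-LKO + TCPOBOP.

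From the other lists, the collagen galactosyltransferase gene Colgalt2 was called higher after TCPOBOP in WT livers at 2.91, and Inhbb and Tgfbr2, a ligand chain and a receptor of TGF-beta signalling, at 1.89 and 1.54. Of the stellate cell or fibroblast markers only Lrat, the retinol-esterifying enzyme of these cells, was listed for WT + TCPOBOP, with 268 to 389 normalized counts in the WT livers and 113 to 166 in WTT1 to WTT5. Lrat was called lower at -1.22, and none of the cholangiocyte markers was listed. With size factors from the listed genes Inhbb and Tgfbr2 were not called and Colgalt2 was still called, at 1.74.

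The LKO livers were also compared with the WT + TCPOBOP livers over the 494 genes of both tables that passed the filter, a comparison at the same dose and time that was added after the tables were seen. None of the 4 matrix genes was called, beside 26.3% of all genes tested, and 3 of them had an unadjusted p under 0.05. The log2 difference, LKO minus WT + TCPOBOP, was 0.72 for Loxl2 (SE 0.18, edgeR unadjusted p = 0.002364, adjusted p = 0.6395), 1.41 for Timp1 (SE 0.39, edgeR unadjusted p = 0.003998, adjusted p = 1.0), -0.58 for Adamtsl1 (SE 0.25, edgeR unadjusted p = 0.04026, adjusted p = 1.0) and -0.10 for Adam11 (SE 0.23, edgeR unadjusted p = 0.6755, adjusted p = 1.0). The exact two-sided permutation p for Loxl2 was 0.0159, the smallest that 4 against 5 libraries can give. A p that misses the threshold does not show that the groups were alike.

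**Figure D4:**
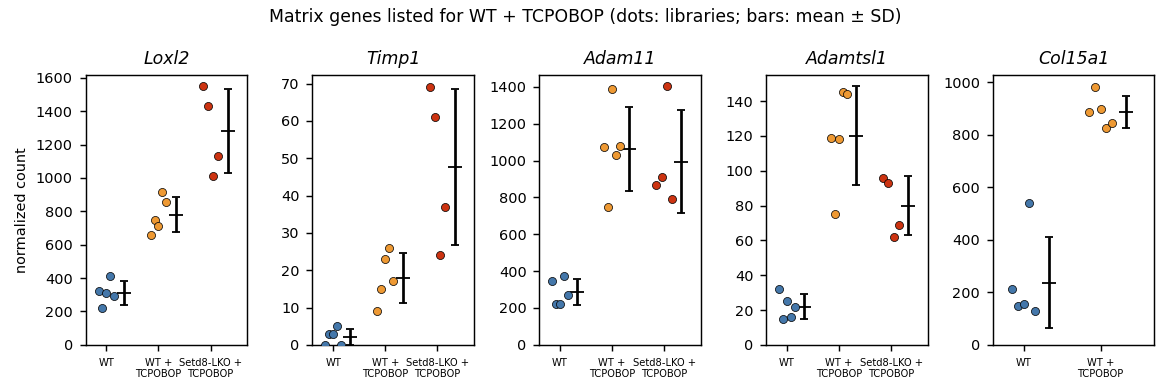
Normalized counts of the 5 matrix genes listed for WT + TCPOBOP, in untreated WT (blue, n = 5), WT + TCPOBOP (orange, n = 5) and Setd8-LKO + TCPOBOP (red, n = 4), with mean ± SD beside the dots. Loxl2 shows 3 separate groups, Adam11 is at a like level in both treated groups, and Col15a1 has no red group because it was not listed for Setd8-LKO.

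Peaks of histone H3 lysine 27 acetylation (H3K27ac), a mark of active promoters and enhancers, were read within 1000 bp of any annotated transcript start. There is 1 list for untreated WT and 1 for Setd8-LKO + TCPOBOP and none per sample, so they have no replicate error and no test. A promoter peak was in the WT list for 38 of the 91 matrix genes (41.8%) and in the LKO list for 44 (48.4%), beside 60.9% and 64.4% of all 4101 listed genes found in the annotation. In 36 genes both lists had one, and the fold enrichment was higher in the LKO list in 30 of these. Among the 28 of them called higher in RNA it was higher in 25, with a median LKO to WT ratio of 1.47. Over all listed genes called higher with a peak in both lists, it was higher in 74.1%, with a median ratio of 1.34.

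At Adamts14 the H3K27ac peak rose from a fold enrichment of 25.7 (chr10:61273000-61273628) in the WT list to 51.7 (chr10:61272917-61273753) in the LKO list, the start region whose sequence is GC-rich above. At Lama5 it was 15.1 and 38.7, at Itgb4 9.13 and 16.7, and at the shared Col4a1 and Col4a2 start 40.3 and 48.9. Among the genes lower in RNA it was 25.4 in WT and 20.8 in LKO at Lamb3 and 27.9 and 24.6 at Col18a1. Mmp15 and Col27a1 kept tall peaks, 52.6 and 50.8 at Mmp15 and 45.1 and 46.8 at Col27a1. Mmp12, Mmp13, Timp1, Lum, Col1a1 and Col3a1 had no such peak in either list, although their RNA counts were far higher in the LKO libraries.

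A promoter peak was in the LKO list only for 8 matrix genes, Adamtsl1, Col15a1, Col9a3, Fbln1, Lama3, Lamc3, Mmp2 and Mmp24 (8.79%, beside 6% of all listed genes). The fold enrichment of these 8 peaks was low, from 7.64 at Col15a1 to 12.9 at Col9a3, and the one at Mmp2 was 8.15 (chr8:92827330-92827727). Lama3 is among them, at 12.1, with RNA that was lower. Eln and Vcan had a peak in the WT list only, at 9.43 and 6.09, while their RNA counts were higher in the LKO livers.

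ATAC-seq, which marks open chromatin, had a promoter peak in both lists for 11 matrix genes, in the WT list only for 6 and in the LKO list only for 1, Adamts15. Some promoter peak was thus present in the WT list for 18.7% and in the LKO list for 13.2% of matrix genes, beside 44.7% and 38.2% of all listed genes. The Adamts15 peak (chr9:30922327-30922606) had a fold enrichment of 6.62. It was not in either list at a −log10 p of at least 20.

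CTCF, a boundary factor, and Smc3, a cohesin subunit, had many more peaks in the LKO lists than in the WT lists, 20905 against 5838 for CTCF and 21615 against 13045 for Smc3. Promoter peaks of CTCF were in the WT list for 6 matrix genes and in the LKO list for 48 (52.7%, beside 42% of all listed genes). For Smc3 the counts were 18 and 59 (64.8%, beside 58%). At Adamts14 the LKO list had a Smc3 peak of 55.4-fold enrichment and a CTCF peak of 8.75, with neither in the WT list. Col1a1 had both peaks in both lists, for CTCF at 12 in WT and 57.3 in LKO and for Smc3 at 20.6 and 56.1. Taller peaks in the LKO list were general among listed genes with a peak in both lists. For CTCF this held in 93.6% of them, with a median LKO to WT ratio of 4.69. For Smc3 it held in 97.1%, with a median ratio of 6.3. Thbs1 alone of the matrix genes had CTCF and Smc3 promoter peaks in the WT list only.

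Lamin A/C, a protein of the nuclear lamina, was mapped by CUT&Tag as broad islands. Transcript starts of 17 matrix genes (18.7%) lay in a WT island and 14 (15.4%) in an LKO island, beside 6.8% and 5.07% of all listed genes. The 17 starts fell in 13 islands, since neighbours shared one: Dcn and Lum, Col3a1 and Col5a2, Adamts1 and Adamts5, and Mmp12 and Mmp13. The island with Dcn and Lum was chr10:97400001-98460000 in the WT list, with a SICER score of 1271, and chr10:97400001-98500000 in the LKO list, with a score of 962. Of the 14 genes with an island in both lists, the score was higher in the LKO list for 2, Mmp12 and Mmp13, which share their island, beside 8.5% of all such listed genes. The starts of Col1a2, Col4a4 and Fbn1 were in a WT island only. None of the 7 matrix genes called lower had a start in a Lamin A/C island. Such starts were also few among all listed genes called lower, at 3.74% in the WT list and 2.73% in the LKO list.

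H4K20Me3, a mark of heterochromatin, covered the starts of 5 matrix genes in the WT list and 4 in the LKO list (5.49% and 4.4%, beside 4.02% and 4.83% of all listed genes). Both Mmp12 and Mmp13 lay in 1 WT island (chr9:7260001-7380000, score 69.3). In the LKO list an island covered the start of Mmp12 (chr9:7300001-7540000, score 135) and not that of Mmp13.

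**Figure D5:**
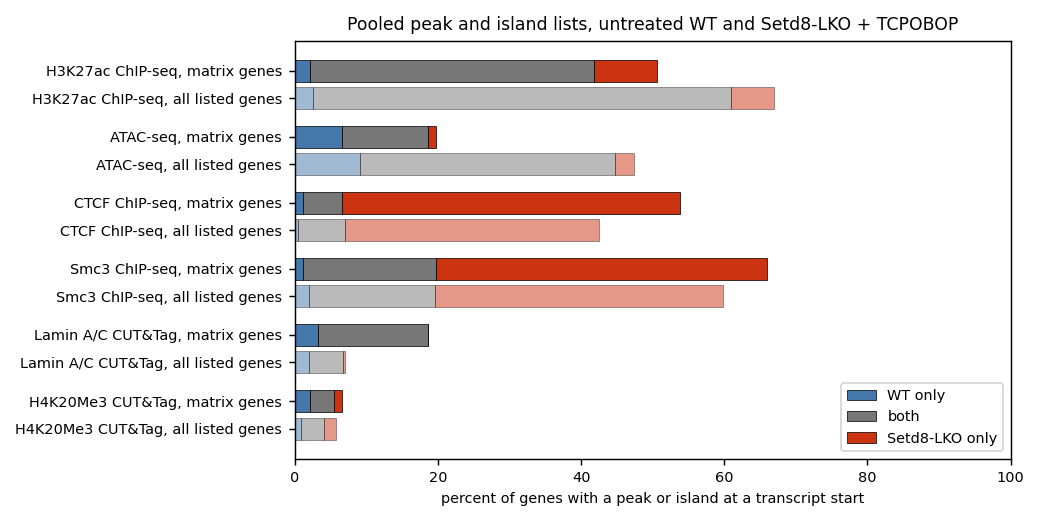
Percent of the 91 matrix genes (full colour) and of the 4101 listed genes found in the annotation (pale colour) with a peak within 1000 bp of a transcript start, or with a start inside an island for the CUT&Tag lists. Colours show a peak in the WT list only, in both lists or in the Setd8-LKO list only. Matrix genes had fewer H3K27ac and ATAC-seq promoter peaks than all listed genes and lay more often in Lamin A/C islands, with no test of either difference.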

How the data were processed

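Mouse liver was profiled by RNA-seq and, for chromatin, by ATAC-seq, CUT&Tag and ChIP-seq. Per the study's methods and the submitters' processing notes, reads were aligned to mm10 with HISAT2, chromatin reads were trimmed with Trimmomatic 0.39 and reduced in proportion to the smallest sample (not stated for ATAC-seq), peaks were called with MACS2 2.2.7.1 and islands with SICER, and deepTools 3.3.2 was used. Reads per gene were normalized with metaseqR. The authors deposited raw counts per gene and, as a second value, normalized counts rounded to whole numbers, a score that equals the raw count times 1 factor per library. The peak lists deposited by the authors, 1 per condition and assay (pooling of replicates was not stated), give a fold enrichment (ratio) and a −log10 p from MACS2, and their island lists give a score. The authors' own fold changes, p-values and FDR columns, which chose the listed genes, were not used. In the tables, 114 further per-library columns were not used.

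The 91 members, the gene lists and the naming rule were chosen with earlier results of these data known. Raw counts were fitted with edgeR 4.0.16 (quasi-likelihood test, R 4.3.3), with library sizes from the deposited factors, a filter at a minimum count of 10, and only the 2 groups compared. Each fit covered a whole table, and Benjamini-Hochberg adjustment assumed 55450 tests, the genes of the GENCODE annotation, because the tables hold selected genes only. Library totals beyond the listed genes are unknown. Listed counts summed to 5734065 to 12780869 per library in the Setd8-LKO table and to 1389901 to 3706582 in the WT + TCPOBOP table. Of the listed genes, 3888 and 716 were found in the annotation. Per the study's methods, RNA-seq libraries were biological replicates. The methods name corn oil as vehicle where the labels say untreated. Alternatives used DESeq2 1.42.0 and limma 3.58.1, other scales, no filter, the run, the replicate number, and left-out libraries. The tests were tested on simulated data. Levels per kb divide the mean by the summed exon length.

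Named genes were, in the Setd8-LKO comparison, the 15 largest rises and 8 largest falls among called genes whose groups did not overlap (7 fell), all genes listed for WT + TCPOBOP, and 25 core genes, of which 14 were listed; Fn1, Timp3, Mmp9, Mmp14, Plau, Ctgf, Cyr61, Itgb1, Itgb2, Itgam and Itgav are not analysed here. Other genes were named after their values were seen. Same-numbered libraries were not paired by any source. A few results are not reported here.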

Additional observations from a re-analysis of the deposited data

Results flagged for a closer look

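Among the 74 groups of libraries examined for the named genes, 2 held a library far from the others by Dixon's test, which chance alone would give in about 1 group of 20. In both cases it was WT4. Mmp12 was at 26 normalized counts in WT4 and at 2 to 3 in the other 4 untreated livers. Col15a1 was at 542 in WT4 and at 129 to 212 in the others. The cause was not tested.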

How the results depend on the processing

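In the Setd8-LKO comparison, the 69 matrix genes called higher became 34 with size factors from the listed genes, 40 with the replicate block, 12 within run A (1 LKO library), 35 at a log2 fold change of at least 2, and 33 without LKO1 and LKO2. The 7 called lower became 3 within run A and 4 at a log2 fold change of at most -2. Leaving out 1 library gave 57 to 73 higher and 6 to 7 lower. In the WT + TCPOBOP comparison, the 4 called higher became 0 with size factors or TMM from the listed genes, 2 with the replicate block, 2 within each run, 1 at a log2 fold change of at least 2, and 3 to 5 with 1 library left out, and the count lower was 0 throughout. Replicate numbers are not stated to pair the libraries, and the deviations of same-numbered libraries correlated at -0.16 to 0.07 across genes in the Setd8-LKO table and at -0.43 to 0.11 in the other, so calls lost under the block are not read as weaker effects. No gene chosen by the naming rule reversed under the alternatives run, whereas Adam22 and Loxl4, neither of them called, changed sign between runs. The within-run and left-out fits use fewer libraries, and for the other settings the cause was not tested. The single matrix gene with an ATAC-seq promoter peak in the Setd8-LKO list only became 2 within 5000 bp and 0 at a −log10 p of at least 20. Low counts limit Mmp7, Mmp13, Timp1, Vcan and Col6a5.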
